A study of Caenorhabditis elegans with 30 samples.

Results

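Wild-type worms that had spent a night at 15 C and were then brought back to 20 C for 2 h were compared with worms left at 15 C, all after 2 h on ice. The comparison rests on 12 of the 30 libraries of a Caenorhabditis elegans series: for each letter of a group, the counts of the naive library and of the butanone-conditioned library were added. This gave 3 sums of shifted worms (letters C, D and H) against 3 sums of 15 C worms (letters B, G and H). All genes were described, and 15412 of the 46778 in the table had enough counts to be tested.

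The study asked how cold on ice delays the forgetting of an odour, and how that changes with the temperature at which worms were kept. A night at 15 C gives worms cold tolerance, and the return to 20 C was made to reverse it. All worms were of the N2 strain, fed on E. coli OP-50, and whole worms were extracted; their age is not given in the sources used here. In each group 3 libraries came from naive worms and 3 from worms trained with butanone, an attractive odorant. Another 6 libraries on ice, from worms kept at 20 C (letters A, E and F), entered the same fit to estimate the spread. A separate set of 6 libraries came from untrained worms with no ice, 3 after a night at 20 C and 3 after a night at 15 C on plain NGM agar.

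Worms sense temperature with the AFD neurons, whose receptor guanylyl cyclases GCY-8, GCY-18 and GCY-23 set the response. In the cold, membranes are kept fluid by delta-9 desaturases (FAT-5, FAT-6 and FAT-7) under the control of the membrane-fluidity sensor PAQR-2, and the transcription factor ZIP-10 drives a programme of organismal death after cold. Forgetting of odours in this animal depends on the adaptor protein TIR-1 and a JNK-type kinase cascade that acts in sensory neurons.

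The 6 sums held 35869815 to 51907819 counts each, from libraries of 17369934 to 30054357 counts. The sums did not fall into their groups. On log2 CPM (read counts scaled by TMM-adjusted library size), the pair most alike was shifted H with 15 C H (r = 0.98 across genes), followed by shifted C with shifted D (0.97) and shifted C with 15 C G (0.968). The least alike were shifted D and 15 C B (0.809). Letter H is the only letter that both groups have, so elsewhere the letter and the temperature cannot be told apart. The highest of the 6 sums was 15 C B for 29.2% of the genes tested and 15 C G for 27.5%. Among the 6956 genes with a mean of at least 10 CPM in a group these shares were 20.7% for B and 46.1% for G. Sum 15 C B was over 4-fold above the next sum for 223 genes (1.45%). The study's design text calls the replicates biological but does not say what a letter marks, and p-values measure only the spread between these sums.

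No gene passed the test between shifted and 15 C worms. By edgeR's quasi-likelihood test with Benjamini-Hochberg adjustment over 15412 genes, 0 were called at an adjusted p under 0.05 (0%), and the lowest adjusted p was 1.00. At an unadjusted p under 0.05 there were 489 genes higher (3.17%) and 23 lower (0.149%) in shifted worms, and DESeq2 called 1 gene, mpst-4. The 3 shifted sums lay all above the 3 sums at 15 C for 313 genes (2.03%) and all below them for 206 (1.34%). Of all genes 37.6% had a positive log2 fold change, with a median of -0.09. Under another scaling (RLE) these were 49.4% and 0.00. The common biological coefficient of variation of the 9 sums was 0.645, a wide spread between sums of one group. In what follows no gene is said to have changed, and higher or lower describes the values in these sums.

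The 489 genes with a low unadjusted p on the higher side had a common profile. Most had low counts: 95 of them had a mean of at least 10 CPM in a group, against 6956 of all 15412 genes. In 475 of the 489 (97.1%) the shifted sums C and D were the 2 highest of the 6 (8.64% of all genes). The 489 were chosen for high values in these same shifted sums, so the choice itself raises that share. Their mean log2 CPM was 1.95, 2.67 and -0.77 in the shifted sums C, D and H, against -1.92, -0.16 and -1.16 in the 15 C sums B, G and H. Shifted H thus stood near the 15 C sums. Letter H alone gave these genes a median log2 ratio of 0.31, with 326 of the 489 positive (7681 of all 15412 genes were). Both sums of H took part in the choice of the 489, which raises these values as well. The naive and the conditioned library of H were both higher for 153 of the 489 (31.3%, against 32.7% of all genes). Both were lower for 55 (11.2%, against 31.8% of all genes). The mercaptopyruvate sulfurtransferase gene mpst-4, chosen here after its values were seen, had the lowest unadjusted p (7.3e-04). It stood at 2.42, 4.26 and 0.467 CPM in shifted C, D and H, against 0.0524, 0.0929 and 0.0366 CPM in 15 C B, G and H. The groups did not overlap, and the log2 fold change was 5.23 (SE 1.12). The number of such genes depended on single sums: it was 95 without shifted D, 192 without 15 C H and 245 without 15 C B, but 985 without shifted H.

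On the lower side, 7 of the 23 genes had a mean of at least 10 CPM in a group. Sum 15 C B was the highest for 19 of the 23 (82.6%), and over 4-fold above the next for 16. These genes were chosen for low values in the shifted sums, so a 15 C sum ranks highest largely by the choice. An example, chosen after values were seen, is the myosin heavy chain gene myo-6. It had 1.21, 1.29 and 1.01 CPM in shifted C, D and H, against 16, 1.08 and 1.67 CPM in 15 C B, G and H, so that only B stood out. A fit without 15 C B had 3 genes on this side, one without shifted D 4, and one without shifted H 686.

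Among 6956 genes with a mean of at least 10 CPM in a group, 42 were higher and 74 lower in all 3 shifted sums than in all 3 sums at 15 C. Over all 15412 genes these counts were 313 and 206. With 3 sums against 3 the smallest two-sided exact permutation p is 0.1, so a lack of overlap alone does not set a gene apart. Of the 42 and the 74, the 12 of lowest unadjusted p in each direction are shown in the plot of single genes. Of these 24, 14 had a log2 fold change of at most 1 in size. The tyrosine aminotransferase gene tatn-1 (chromosome X, 14791008 to 14792984 in ce11, the build of all positions given here), the first enzyme of tyrosine breakdown, had 35.7, 47 and 25.8 CPM in shifted C, D and H, against 18.7, 18.6 and 15.3 CPM in 15 C B, G and H. The means were 36.2 ± 10.6 and 17.5 ± 1.96 CPM (SD, n = 3 each), with a log2 fold change of 1.04 (SE 0.38, unadjusted p = 0.019). Its ratio within letter H was 1.03 in naive and 0.52 in conditioned libraries on the log2 scale.

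The phosphoglycolate phosphatase homologue pgph-3 (chromosome V, 5762494 to 5763846) had 46.4, 60.2 and 33.3 CPM in shifted C, D and H, against 25, 25.9 and 20.4 CPM in 15 C B, G and H. Its log2 fold change was 0.97 (SE 0.40), and the lowest shifted sum stood clear of the highest sum at 15 C. The uncharacterised gene H06A10.1 (chromosome X, 13507533 to 13510120) had 11.1, 11.6 and 7.87 CPM in shifted C, D and H, against 1.73, 2.75 and 4.19 CPM in 15 C B, G and H. It had the second lowest unadjusted p of the higher genes with this level and no overlap (0.0062, log2 fold change 1.82, SE 0.54). The gene F07G6.10 was the evenest at 15 C, with 40.7, 25 and 35.2 CPM in shifted C, D and H, against 16.7, 17.3 and 17.7 CPM in 15 C B, G and H.

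R105.1 had the lowest unadjusted p of this set (0.0049), with 8.51, 20.3 and 2.60 CPM in shifted C, D and H, against 0.576, 2.49 and 1.24 CPM in 15 C B, G and H. All of its 788 bases lie within the span of F19C7.8 on the opposite strand, and the kits used do not mark strand. Overlaps given here are of whole gene spans, introns included. Whether the exons overlap was not checked, so reads of the pair may not be told apart. The same holds for ZK512.7, whose 650 bases lie within the span of eat-4, the vesicular glutamate transporter gene. The other higher genes of the set were F43C11.3, C45G9.6, cnp-2, C55B7.3, the bZIP gene zip-9 and D2023.1, with log2 fold changes of 0.76 to 2.09. In zip-9 and D2023.1 the shifted sum H was close to the sums at 15 C (14.9 and 5.82 CPM, against 12.0 and 5.71 CPM in 15 C H).

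Of the 12 lower genes, cyp-35D1 (chromosome V, 16069238 to 16071318), a cytochrome P450 of the xenobiotic-inducible 35 family, had the lowest unadjusted p (0.027). It had 6.20, 2.21 and 3.87 CPM in shifted C, D and H, against 7.86, 19.3 and 10.8 CPM in 15 C B, G and H. The log2 fold change was -1.63 (SE 0.64), and the ratio within letter H was -1.29 in naive and -1.58 in conditioned libraries. The chitinase gene cht-3 (chromosome IV, 7003623 to 7009268) ranged over 66 to 88.8 CPM in the shifted sums, against 92.1 CPM in 15 C H and 335 CPM in 15 C B. Its log2 fold change of -1.17 was -0.33 without 15 C B.

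nipi-3, a Tribbles-type pseudokinase gene of the epidermal immune response, had 19.5, 18.3 and 17.4 CPM in shifted C, D and H, against 53.6, 21.1 and 25.7 CPM in 15 C B, G and H. The MAP kinase gene sma-5, which sets body size, had 24.1, 20.6 and 26.2 CPM in shifted C, D and H, against 61.9, 27.3 and 36.6 CPM in 15 C B, G and H. In both the values of the shifted sums lay close together and 15 C B was the highest. The second chitinase gene of the set, cht-1, did not have this shape: it had 11.7, 8.0 and 12.7 CPM in shifted C, D and H, against 15.8, 17.3 and 22.5 CPM in 15 C B, G and H. The remaining lower genes were ifbp-1, sup-26, the pantothenate kinase gene pnk-4, the acyl-CoA dehydrogenase gene acdh-7, htrl-1, WBGene00014772 and C55B6.1, with log2 fold changes of -0.56 to -1.03.

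**Figure D1:**
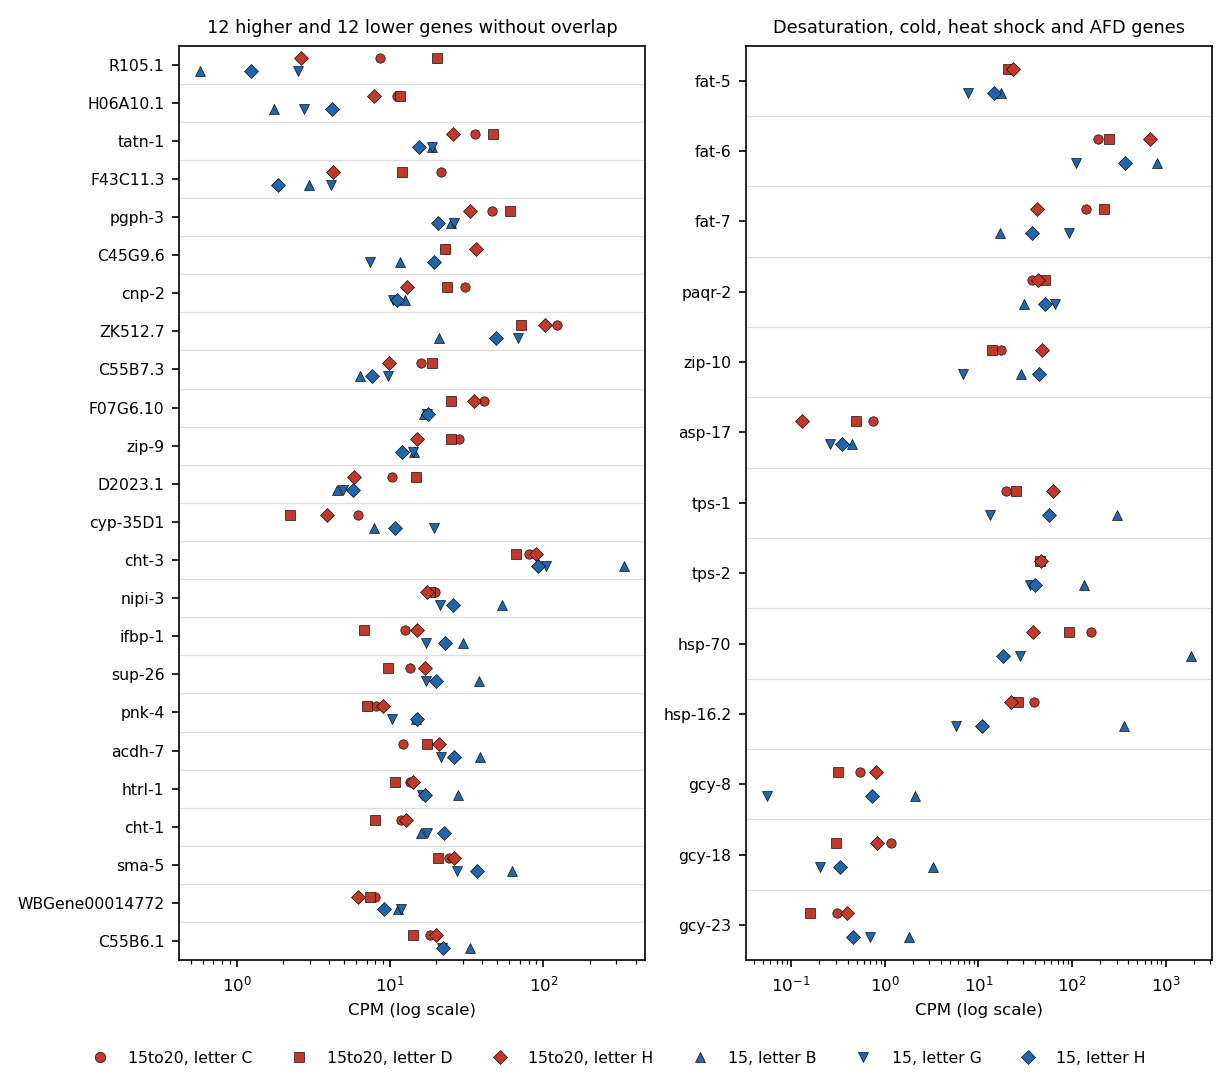
CPM of single genes in each of the 6 sums on a log axis, with the shifted worms (15to20, red) above the worms left at 15 C (blue) in each row and 1 symbol per letter. The left panel holds 12 higher and 12 lower genes without overlap, and the right panel genes of desaturation, cold survival, heat shock and the AFD neuron; hsp-70 reaches 1858 CPM in 15 C B and stays at or under 161 CPM in the other 5 sums.

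Sperm genes were the group farthest from the median of all genes. Of 45 markers (major sperm proteins, the ssp family and the phosphatase genes gsp-3 and gsp-4), 39 were tested. Of these, 38 had a positive log2 fold change (97.4%, against 37.6% of all genes). On the higher side 10 had an unadjusted p under 0.05 (25.6%, against 3.17% of all genes). The median log2 fold change of the 39 was 2.95, against -0.09 over all genes, and none passed the test. The summed level of the list was 897, 2110 and 216 CPM in shifted C, D and H, against 193, 323 and 183 CPM in 15 C B, G and H. In 38 of the 39 (97.4%) the shifted sums C and D were the 2 highest, against 8.64% of all genes. Within letter H the median log2 ratio of the sums was 0.04. The libraries of letter H went opposite ways, with medians of -0.58 in naive and 0.61 in conditioned worms.

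gsp-3 (chromosome I, 4709259 to 4710712), a PP1-type phosphatase of sperm, had 27, 66.8 and 3.04 CPM in shifted C, D and H, against 0.367, 7.62 and 3.13 CPM in 15 C B, G and H. Its groups overlapped, because shifted H lay below 15 C G and H (log2 fold change 3.12, SE 1.11, unadjusted p = 0.017). In naive and conditioned libraries gsp-3 had 31.5 and 21 CPM in shifted C and 65.0 and 65.9 CPM in shifted D. ssp-10 followed the same order, with 16.1, 27.3 and 1.97 CPM in shifted C, D and H, against 1.41, 3.62 and 1.85 CPM in 15 C B, G and H. Major sperm protein genes are near-identical copies, so that single members are uncertain in their read assignment. A second list of 46 spermatogenesis genes, written after values were seen, had 34 positive members of 39 tested (87.2%) and a median of 1.91. In libraries of whole worms, fewer cells of a type and less RNA per cell cannot be told apart.

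Cuticle collagens, which are made at each larval moult, were the next group. Of 134 tested members 88 (65.7%) had a positive log2 fold change, against 37.6% of all genes, and the median was 0.49. At an unadjusted p under 0.05, 16 were higher (11.9%, against 3.17% of all genes) and 0 lower (0.149% of all genes). The shifted sums C and D were the 2 highest for 47 of the 134 (35.1%, against 8.64% of all genes). The summed level of the list overlapped between the groups. It was 54882, 70092 and 26598 CPM in shifted C, D and H, against 14948, 56958 and 27885 CPM in 15 C B, G and H. Within letter H the median log2 ratio of the sums was 0.05. Both libraries of H were higher for 44 members (32.8%, against 32.7% of all genes) and lower for 33 (24.6%, against 31.8%). dpy-13 (chromosome IV, 4235614 to 4236710), a collagen that shapes the body, had 9.53, 4.94 and 0.441 CPM in shifted C, D and H, against 0.314, 0.984 and 0.494 CPM in 15 C B, G and H. col-147 had 77.8, 45.6 and 6.91 CPM in shifted C, D and H, against 22.4, 7.89 and 4.69 CPM in 15 C B, G and H. In both genes letter C was the highest and shifted H was close to 15 C H. Collagen genes are similar in sequence, and the counts of single members may be shared between them.

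**Figure D2:**
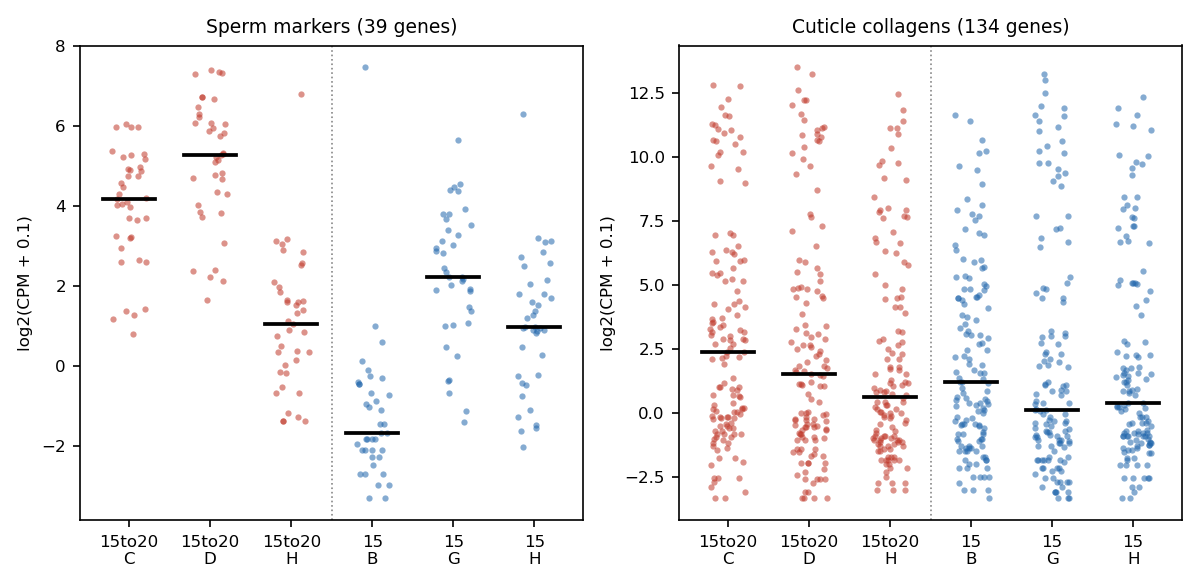
Level of each tested sperm marker (39 genes) and cuticle collagen (134 genes) in the 6 sums, as log2(CPM + 0.1), with the shifted sums (15to20, red) left of the sums at 15 C (blue) and black bars at the medians. Sperm markers are highest in shifted C and D and lowest in 15 C B, while the 2 sums of letter H are alike.

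Genes of membrane desaturation and fluidity showed no common direction: 13 of 25 were positive and 12 negative, with a median of 0.09. The palmitoyl-CoA desaturase gene fat-5 (chromosome V, 17725004 to 17726818) had 23.2, 20.6 and 23.3 CPM in shifted C, D and H, against 17.6, 7.67 and 14.8 CPM in 15 C B, G and H. The means were 22.4 ± 1.5 and 13.4 ± 5.15 CPM (SD, n = 3 each), and the groups did not overlap (log2 fold change 0.74, SE 0.46, unadjusted p = 0.13). The stearoyl-CoA desaturase gene fat-7 (chromosome V, 7151353 to 7153146) had 140, 221 and 42.7 CPM in shifted C, D and H, against 16.9, 91.8 and 37.5 CPM in 15 C B, G and H. These overlapped (log2 fold change 1.47, SE 0.84). fat-6, the other stearoyl-CoA desaturase gene, had 190, 246 and 679 CPM in shifted C, D and H, against 809, 111 and 371 CPM in 15 C B, G and H. Its log2 fold change was -0.21 with all sums and 0.62 without 15 C B. Thus fat-6 was high in the 3 sums where fat-7 was low, namely 15 C B and both sums of letter H.

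Several elongase genes of the same list had positive values. elo-5, which makes branched-chain fatty acids with its neighbour elo-6, had 835, 700 and 900 CPM in shifted C, D and H, against 199, 608 and 467 CPM in 15 C B, G and H. The groups did not overlap (log2 fold change 0.93, SE 0.61, unadjusted p = 0.16). Both libraries of letter H were alike for elo-5, with log2 ratios of 0.93 and 0.98. elo-6 had 67.8, 50.7 and 126 CPM in shifted C, D and H, against 25, 53.0 and 58.1 CPM in 15 C B, G and H. elo-7 was the 1 member with an unadjusted p under 0.05 (0.014) and stood at no more than 2.26 CPM. paqr-2 had 37.2, 51.6 and 43.4 CPM in shifted C, D and H, against 30.6, 65.6 and 50.9 CPM in 15 C B, G and H, a log2 fold change of -0.15 (SE 0.44).

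Heat shock genes were set apart by 1 sum. Of 25 tested heat shock genes and HSF-1 targets 22 had a negative log2 fold change (9621 of all 15412 genes had), with a median of -0.29. Sum 15 C B was the highest for 14 of the 25 (56.0%, against 29.2% of all genes) and over 4-fold above the next for 6. The inducible chaperone gene hsp-70 (chromosome I, 9320325 to 9322519) had 161, 92.2 and 38.1 CPM in shifted C, D and H, against 1858, 28.1 and 18.4 CPM in 15 C B, G and H. Both libraries of 15 C B were high for hsp-70, at 1527 CPM in naive and 2051 CPM in conditioned worms. Its log2 fold change was -2.71 (SE 1.94) with all sums and 2.05 without 15 C B, and all of its 2195 bases overlap uggt-2 on the opposite strand. The small heat shock gene hsp-16.2 (chromosome V, 1804334 to 1804957) had 39, 26.5 and 22.2 CPM in shifted C, D and H, against 362, 5.74 and 10.9 CPM in 15 C B, G and H. Apart from 15 C B, every shifted sum was above both sums at 15 C for hsp-70 and hsp-16.2, and without it the log2 fold change of hsp-16.2 was 1.8, against -2.11 with it. Worms kept at 20 C varied as widely, with 694, 2.30 and 16.8 CPM of hsp-70 in sums A, E and F. Without 15 C B the median of the list was 0.27.

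In the list of cold shock and rewarming genes 4 of 16 members were positive, and the median was -0.34 (0.08 without 15 C B). The trehalose-6-phosphate synthase gene tps-1 (chromosome X, 17467121 to 17474534) had 19.5, 25.3 and 62.3 CPM in shifted C, D and H, against 306, 13.4 and 57.4 CPM in 15 C B, G and H. Its log2 fold change was -1.81 (SE 1.04) with all sums and 0.01 without 15 C B. The second synthase gene, tps-2, had 46.2, 45.0 and 47.1 CPM in shifted C, D and H, against 133, 35.5 and 40.7 CPM in 15 C B, G and H. The shifted sums of tps-2 thus lay within a narrow range and 15 C B again stood out; tps-2 shares 1871 bases with arl-3 on its own strand. zip-10 had 17.3, 14.1 and 47.6 CPM in shifted C, D and H, against 28.5, 6.84 and 44.0 CPM in 15 C B, G and H, a log2 fold change of -0.01 (SE 0.67). Both sums of letter H were the highest of the 6 for zip-10, and for the other letters the letter and the temperature cannot be told apart. The aspartyl protease gene asp-17 stayed under 1 CPM in all 6 sums.

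AFD genes and genes of memory and forgetting were mostly highest in 15 C B. Of 13 tested AFD genes 11 were negative (median -0.65), against 9621 of all 15412 genes. B was the highest for 11 of the 13 (84.6%, against 29.2% of all genes). The cyclase gene gcy-23 had 0.311, 0.159 and 0.390 CPM in shifted C, D and H, against 1.83, 0.687 and 0.458 CPM in 15 C B, G and H (log2 fold change -1.78, SE 0.83, unadjusted p = 0.055). gcy-8 and gcy-18 overlapped between the groups, with highest values of 2.09 and 3.27 CPM in 15 C B. Of 30 tested memory and forgetting genes 28 were negative (median -0.44), and B was the highest for 23 (76.7%). Without 15 C B the medians of the lists of AFD and memory genes were 0.19 and 0.11.

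tir-1 (chromosome III, 3869590 to 3901642), the adaptor gene needed for forgetting, had 43.9, 25.1 and 177 CPM in shifted C, D and H, against 542, 27.8 and 120 CPM in 15 C B, G and H. Its log2 fold change was -1.49 (SE 1.12, unadjusted p = 0.21), while letter H gave a log2 ratio of 0.48 in naive and 0.62 in conditioned libraries. The kinase gene nsy-1, which acts after tir-1, had 30.9, 20.2 and 28.1 CPM in shifted C, D and H, against 102, 20.5 and 27 CPM in 15 C B, G and H. Outside 15 C B nsy-1 did not separate the groups. Markers of neurons at large moved with these genes: 20 of 24 were negative (median -0.22), against 9621 of all 15412 genes. Their summed level was 265, 256 and 377 CPM in shifted C, D and H, against 462, 212 and 318 CPM in 15 C B, G and H. No marker was at 0 in all sums of a group. The part of this tissue-wide level in the values of AFD and memory genes was not tested.

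In other large groups the highest sum was again often 15 C B. Moulting and apical matrix genes had 93 negative members of 118 (median -0.49), with 15 C B the highest for 83 (70.3%, against 29.2% of all genes). The lipocalin gene lpr-3 of this group had 8.86, 0.885 and 10.8 CPM in shifted C, D and H, against 114, 3.66 and 13.7 CPM in 15 C B, G and H. Nuclear hormone receptors had 157 negative members of 183 (median -0.32) and cytochrome P450 genes 48 of 69 (median -0.38), against 9621 of all 15412 genes. Sum B was the highest for 94 (51.4%) and 30 (43.5%) of them. The share of positive cytochrome P450 genes (30.4%) was near that of all genes (37.6%). Without 15 C B the medians were 0.11 for moulting genes and -0.05 for both nuclear hormone receptors and cytochrome P450 genes. Proteasome, cell cycle and nucleolar genes were the highest in 15 C G in 31 of 33, 39 of 45 and 23 of 28 members, against 46.1% of all genes at 10 CPM. Cytosolic ribosomal proteins had a median of -0.04 and nuclear respiratory chain genes one of 0.04.

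Some metabolic and stress genes had a wide range over the sums. The glyoxylate cycle gene icl-1, a DAF-16 target, had 1060, 1493 and 5688 CPM in shifted C, D and H, against 15555, 728 and 4642 CPM in 15 C B, G and H. The metallothionein gene mtl-1 had 2.38, 19 and 630 CPM in shifted C, D and H, against 1159, 0.910 and 223 CPM in 15 C B, G and H. For both genes 15 C B and the 2 sums of H were high and the sums C, D and G low. Of 20 tested DAF-16 targets 13 were negative (median -0.09), and the 35.0% that were positive lay near the 37.6% of all genes. Beta-oxidation and lipolysis genes had 48 negative members of 80 (median -0.16) and C-type lectins 64 of 125 (median -0.07). Of all genes 9621 of 15412 were negative (median -0.09). The shifted sums lay all above the 15 C sums for 1 of the 80 and all below them for 4. For the lectins both counts were 2. At an unadjusted p under 0.05, 3.17% of all genes were on the higher side. These included 6 of the 80 (7.5%) and 6 of the 125 lectins (4.80%). The acyl-CoA dehydrogenase gene acdh-8 was one of them, with 17.3, 44.1 and 2.08 CPM in shifted C, D and H, against 0.262, 4.61 and 1.89 CPM in 15 C B, G and H. The lectin gene clec-123 was another, with 11.2, 20.3 and 0.909 CPM in shifted C, D and H, against 0.157, 1.93 and 0.952 CPM in 15 C B, G and H. acdh-8 and clec-123 thus had the profile of the sperm markers.

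**Figure D3:**
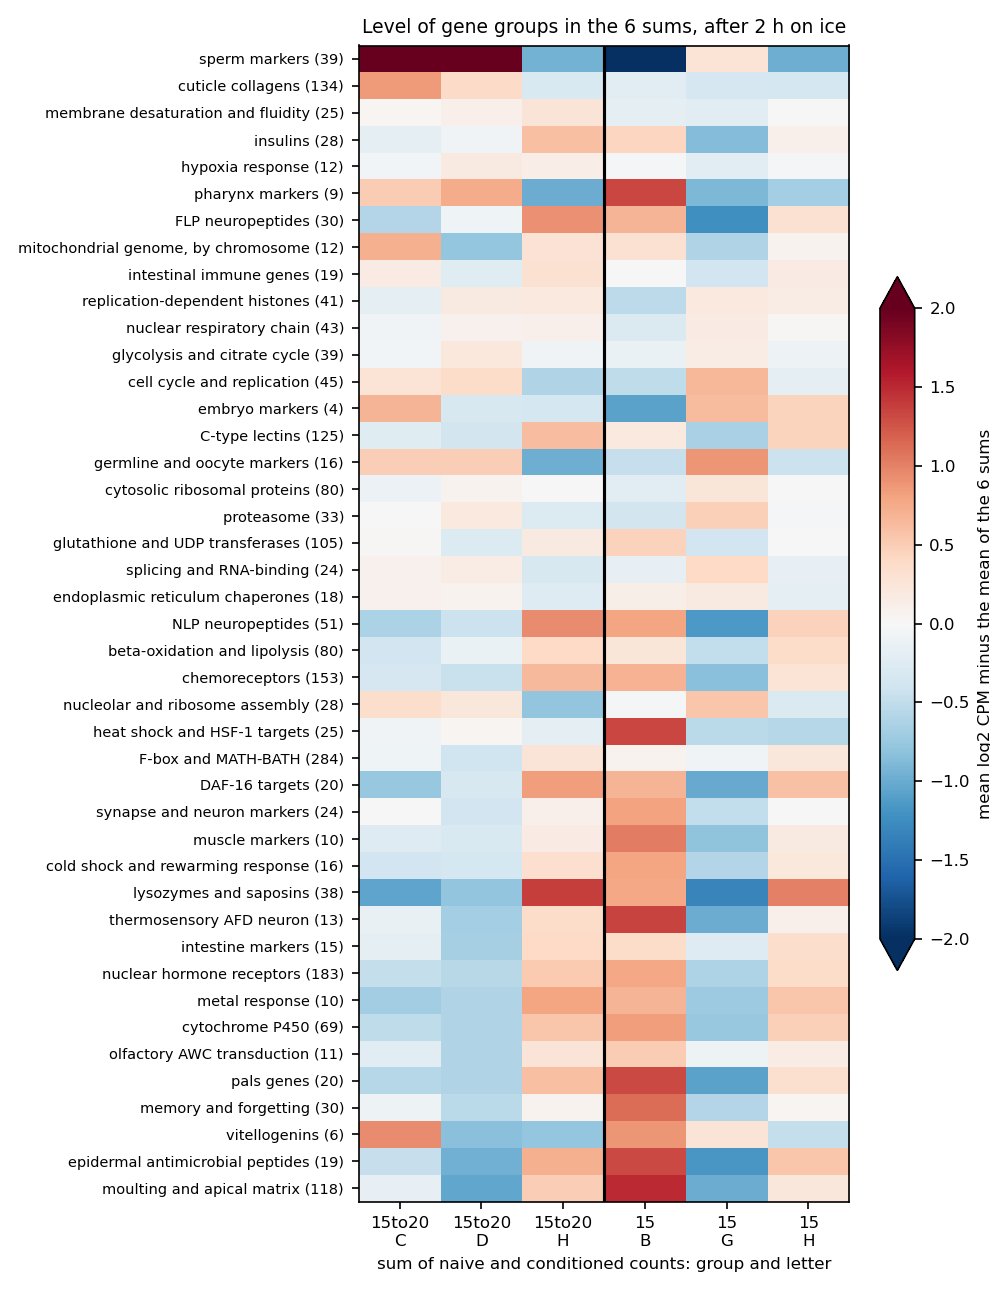
Mean log2 CPM of the tested members of each gene group (number in brackets) in the 6 sums, minus the mean over the 6 sums, with the shifted sums (15to20) left of the black line and the sums at 15 C right of it; groups run from the most positive to the most negative difference between the sides. In several groups, among them lysozymes and saposins and NLP neuropeptides, 15to20 H, 15 B and 15 H are alike across the line. In these groups 15to20 C, 15to20 D and 15 G are alike too. Other groups do not have this pattern, among them heat shock genes, cuticle collagens, vitellogenins and pharynx markers.

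Within letter H, the 1 letter that both groups have, the naive and the conditioned library each gave a ratio of shifted to 15 C worms, and these ratios had r = 0.72 across the genes with a mean of 10 CPM and r = 0.44 across those with 1 CPM. Of 6567 such genes, 50 were over 2-fold higher in both (0.761%) and 16 over 2-fold lower in both (0.244%). There is 1 letter with 2 libraries a group, so no test was made. The cytochrome P450 gene cyp-37B1 (chromosome V, 16278116 to 16280616) was the most different, at 220 CPM in shifted H, against 40.6 CPM in 15 C H. The lipase gene lipl-2 (chromosome V, 9791567 to 9793241) had 298 CPM in naive and 504 CPM in conditioned shifted worms, against 115 and 144 CPM at 15 C. The lysozyme gene ilys-3 (894 CPM, against 348 CPM in 15 C H), the cystatin gene cpi-1 (1181 CPM, against 424 CPM) and mtl-1 (630 CPM, against 223 CPM) belonged to the same set, as did hsp-16.2, hsp-16.41, elo-6 and the insulin-like gene ins-3.

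The 16 genes lower in shifted H included genes of RNA and chromatin, picked here after their values were seen. gld-4, a cytoplasmic poly(A) polymerase gene of the germline, had 7.69 CPM in shifted H, against 27.5 CPM in 15 C H. smg-2, the helicase gene of nonsense-mediated decay, had 7.79 CPM, against 19.3 CPM. The 16 also held smg-1 of the same pathway, the DNA polymerase gene pole-1, the condensin gene smc-4, the centromere gene hcp-4, the histone methyltransferase gene met-2 and the chromatin remodeller gene let-418. Germline and oocyte markers lay lower in both libraries of H for 15 of 16 members (median -0.58), nucleolar genes for 24 of 28 (-0.54) and cell cycle genes for 36 of 45 (-0.40), against 31.8% of all genes and 46.3% of those at 10 CPM. The yolk receptor gene rme-2 of the oocyte had 518 CPM in shifted H, against 958 CPM in 15 C H. FLP neuropeptide genes lay higher in both libraries for 27 of 30 (median 0.59), NLP neuropeptide genes for 39 of 51 (0.52) and lysozyme and saposin genes for 25 of 38 (0.39), against 32.7% of all genes. The summed germline level moved the same way, at 5603 CPM in shifted H, against 7327 CPM in 15 C H, and its part in the other ratios was not tested.

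The other letters did not show the order of letter H. Across 6565 genes, the ratio in H and the log2 fold change of C and D against B and G, which share no library with it, had a Pearson's r of -0.42 and a Spearman's rho of -0.37; genes are not independent replicates. Of the 50 genes higher in H, 44 were negative in the other letters (64.2% of all genes were), with a median of -2.07. mtl-1 had a log2 fold change of -5.81 there and lipl-2 one of -3.20. For both genes 15 C B lay above shifted C and D, and 15 C G below them. Under RLE scaling r was -0.41, and with a minimum of 1 CPM it was -0.28 over 11513 genes.

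**Figure D4:**
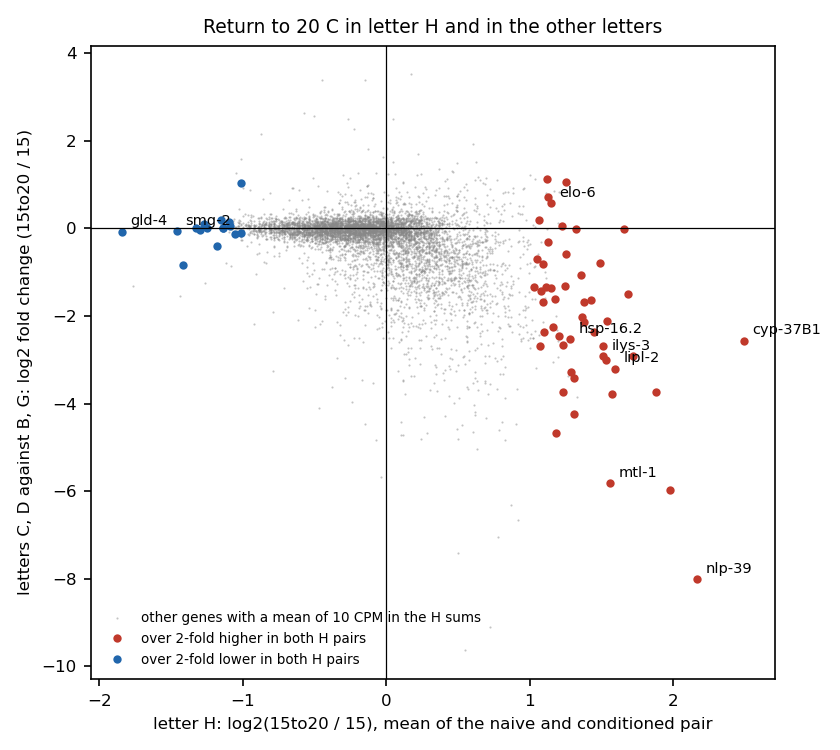
Log2 ratio of shifted to 15 C worms within letter H (x axis, mean of the naive and conditioned pair) against the log2 fold change of shifted C and D over 15 C B and G (y axis), 1 point per gene. Red points are the 50 genes over 2-fold higher and blue points the 16 over 2-fold lower in both pairs of H; most red points lie below 0 on the y axis.

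The libraries without ice gave a separate measure of 20 C against 15 C. On plain agar 963 genes were higher (7.77%) and 272 lower (2.19%) at 20 C by edgeR's quasi-likelihood test at an adjusted p under 0.05, of 12392 tested. These calls rested on single libraries: without the second or the third library at 15 C 0 genes were called. Of the genes higher at 20 C on agar, 957 were tested on return to 20 C, and 250 of them (26.1%) were positive, against 37.6% of all genes. Of the 271 genes lower on agar, 84 (31%) were positive. The median log2 fold changes were -0.24 and -0.07, and no gene of either set was called. These shares moved with single sums. For the genes higher on agar the share was 63.4% without 15 C B, 61.4% without shifted C and 55.4% without shifted D (47.8%, 48.8% and 48.5% of all genes). It was 42.4% without 15 C H, 12.9% without 15 C G and 10.3% without shifted H (37.4%, 49.6% and 42.7% of all genes). For the genes lower on agar it was 93.4% without 15 C G and 77.9% without shifted H, but 5.17% without 15 C B and 9.59% without 15 C H.

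The letters differed here as well. Within letter H, 771 of the 957 genes higher on agar (80.6%) were higher in shifted worms, with a median log2 ratio of 0.33, against 49.8% of all genes. Of the 271 genes lower on agar 18 (6.64%) were higher in shifted H, with a median of -0.38. The shifted sums had a mean log2 CPM of 3.00, 3.24 and 4.71 for the genes higher on agar (C, D and H), against 4.62, 2.72 and 4.39 in 15 C B, G and H. In the other letters the median was -0.85 for the genes higher on agar and 0.03 for those lower. Across 12105 genes the difference on agar had an r of 0.39 with letter H and of -0.54 with the other letters.

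The 50 genes chosen by letter H were looked up in the agar libraries, which the choice did not use. On agar 43 of them were tested, all 43 had a positive log2 fold change at 20 C and 18 (41.9%) were called higher. Of all 6539 genes of that level tested on agar 41.1% were positive and 9.68% were called higher. The 16 genes lower in H had 2 positive values and 1 call, rif-1.1, on the lower side. The 18 genes are 1.87% of the 963 called higher on agar. lipl-2 had a log2 fold change of 2.83 on agar (adjusted p = 0.024), cyp-37B1 one of 4.02 (adjusted p = 0.024) and mtl-1 one of 3.18 (adjusted p = 0.030), all by edgeR's quasi-likelihood test.

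**Figure D5:**
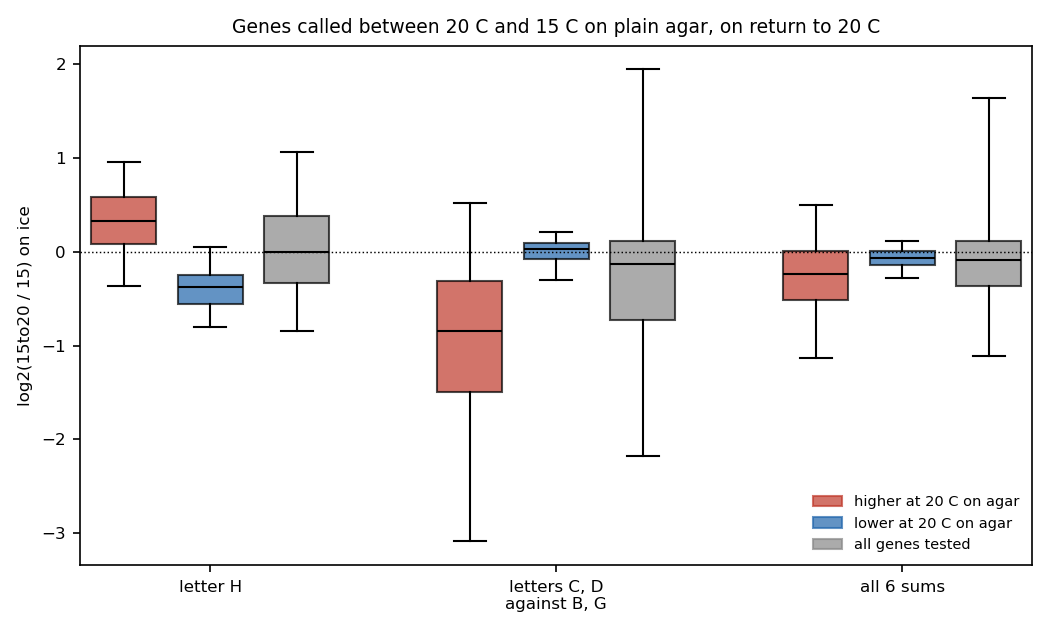
Log2 ratio of shifted (15to20) to 15 C worms on ice for genes called higher (red) or lower (blue) at 20 C on plain agar and for all genes tested (grey), in letter H, in the other letters and in all 6 sums. Boxes span the quartiles, lines mark medians and whiskers reach from percentile 5 to percentile 95; the red median is 0.33 in letter H and -0.85 in the other letters.

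Training was tested as a further factor. In 18 libraries with the letter within a temperature as a block, 0 of 14864 genes had a shifted-to-15 C difference that itself differed between conditioned and naive worms by edgeR's test (lowest adjusted p = 1.00), and 119 (0.801%) had an unadjusted p under 0.05.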

How the data were processed

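The authors deposited raw counts per gene for 18 libraries on ice and 12 without ice. Per the submitters' processing notes they used cutadapt, FastQC, HISAT2, HTSeq and DESeq2 on build ce11; versions and order are not given. Per the labels' protocols, libraries on ice were made with Nextera XT after SMART-Seq amplification by either of 2 kits, which does not mark strand, and libraries without ice with a directional kit. Which kit made which library is not given in the sources used here, nor is HTSeq's strand setting.

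Naive and conditioned counts of a letter were added, since these libraries deviated together (r 0.471 to 0.897). The 9 sums in 3 groups were tested with edgeR (version 4.0.16, under R version 4.3.3) after TMM scaling and filterByExpr, with the robust two-sided quasi-likelihood test and Benjamini-Hochberg adjustment over all genes at 0.05. The agar contrast, 20 C minus 15 C, comes from a fit of all 12 libraries without ice, 6 of them from lithium plates, with 12039753 to 21957091 counts per control library. Alternatives were other scalings and filters, DESeq2 (version 1.42.0), naive or conditioned libraries alone, a replicate block and leaving out single sums. The code was tested on simulated data. No libraries agreed within sampling noise (lowest chi-square per degree of freedom 7.8). Errors are SD between sums or SE of the fit. Logarithms of CPM use a prior count of 2, and the plot of sperm and collagen genes adds 0.1 CPM.

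Genes were named by this rule: the 12 higher and 12 lower genes of lowest p with at least 10 CPM in a group and no overlap, since none was called, and always 13 genes of desaturation, cold, heat shock and AFD neurons. Other genes are examples of a list or set and were picked after their values were seen. Members and lists were chosen with earlier results of these data known. Symbols (43818 of 46778 genes) and coordinates are those of Ensembl release 115 on WBcel235, the assembly called ce11. No sequences are printed.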

Additional observations from a re-analysis of the deposited data

How the results depend on the processing

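The count of genes called on return to 20 C was 0 under every setting run, leaving out each sum included, except DESeq2 (1 gene) and no filter on low counts (284 genes, 248 higher and 36 lower). With no filter 28352 genes were tested, and 272 of the 284 genes had an unadjusted p of 7.3e-04 to 0.19 in the filtered fit. The median prior degrees of freedom, the weight of the spread pooled over genes, was infinite with no filter, against 4.75 in the main fit. Where it is infinite a gene's own spread carries no weight, so the 284 calls are not on the footing of the main fit. On plain agar 1235 genes were called, 3048 by DESeq2, 711 with no filter and 1252 with the replicate number as a block (same-numbered libraries had r of 0.027 to 0.346, so the numbers were not taken as pairs). Leaving out 1 library gave 0 to 2828. The share of genes higher on agar that were positive on return, 26.1%, was 32.2% under RLE, 14.7% without letter H, 80.6% in letter H alone, 32.2% in naive and 30.0% in conditioned libraries, and 10.3 to 63.4% without 1 sum. The share of genes lower on agar, 31%, was 54%, 55.4%, 6.64%, 56.9% and 39.8% under the same settings and 5.17 to 93.4% without 1 sum. Of all genes 37.6% were positive in the main fit, and 49.4%, 37.5%, 49.8%, 51.8% and 40.1% under these settings. For genes lower on agar the shares under RLE and in naive or conditioned libraries thus lay near those of all genes. Of 719 list medians recomputed 15 moved by more than the SD of the list's level between sums of a group. That SD is wide where 15 C B stands out, so this count does not measure stability. The medians of heat shock, memory and moulting genes turned sign without 15 C B and are not among the 15 for that setting.

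Signs turned for 5 named genes under settings other than leaving out a single sum: fat-6 (0.03 in naive libraries, 0.03 in 18 libraries with a replicate block), zip-10 (0.06 under RLE, 0.06 by DESeq2, 0.00 with no filter, 0.05 in the 6 sums alone, 0.21 in conditioned libraries, 0.16 with the block), hsp-16.2 (0.13 with the block), gcy-8 (0.40 with the block) and gcy-18 (0.61 in naive libraries, 0.70 with the block). Without 1 sum, log2 fold changes ran from -1.0 to 0.62 for fat-6, -0.41 to 0.11 for paqr-2, -0.77 to 0.57 for zip-10, -0.08 to 0.81 for asp-17, -2.50 to 0.01 for tps-1, -0.91 to 0.27 for tps-2, -3.29 to 2.05 for hsp-70, -2.67 to 1.8 for hsp-16.2, -1.34 to 0.49 for gcy-8 and -1.22 to 1.51 for gcy-18. The cause was not tested.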

Other observations

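The 12 genes of the mitochondrial genome had positive log2 fold changes on return to 20 C (median 0.24), none called. Their summed level was 6666, 2927 and 6675 CPM in shifted C, D and H, against 5260, 3423 and 5489 CPM in 15 C B, G and H. The naive and the conditioned library of letter H went opposite ways, with median log2 ratios of 0.86 and -0.46.

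Pharynx markers varied between the sums of a group: their summed level was 135, 108 and 18.1 CPM in shifted C, D and H, against 246, 33.8 and 22 CPM in 15 C B, G and H. The pharyngeal myosin gene myo-2 had 54.5, 34.7 and 3.38 CPM in shifted C, D and H, against 106, 8.93 and 4.87 CPM in 15 C B, G and H.

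The 6 vitellogenin genes, which encode yolk, took up 15.5%, 5.17% and 8.21% of the counts of shifted C, D and H, against 29.5%, 8.90% and 8.06% of those of 15 C B, G and H. The C-type lectin gene clec-209 had the lowest unadjusted p of the lower genes but one (0.014), and rested on 1 library: it had 30.6 CPM in conditioned worms of 15 C H and at most 0.307 CPM in the other 11 libraries of the comparison.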
